A study of Homo sapiens with 6 samples.

Results

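The antioxidant response genes of the transcription factor NRF2 were described by the Kac and Kbz peaks that lay on them. They were 9 genes, NFE2L2, KEAP1, NQO1, HMOX1, GCLC, GCLM, TXNRD1, SRXN1 and SLC7A11, listed by name and located with GENCODE 44 in hg38, out of 20033 protein-coding genes and 62663 genes in all on the autosomes, X and Y. A gene was given every peak that shared at least 1 bp with its body or with the 5 kb on either side of it, a stretch called its window here. The peaks came from ChIP-seq of chromatin cut with micrococcal nuclease, with pan antibodies against acetylated lysine (Kac) or benzoylated lysine (Kbz), which do not tell histones or residues apart. HepG2, a hepatoma-derived human cell line, was the labelled source of every library, grown in the same medium with serum. Control cells received no agent, and the SB groups received sodium benzoate (SB, 10 mM, 24 h). The lists used were control Kac, SB Kac and SB Kbz, each from 1 library, so that no difference between them could be set against replicate error and no test between groups was made. For control Kbz the labels state that peak calling gave none.

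There were 70326 peaks in the control Kac list, 63282 in SB Kac and 24308 in SB Kbz, with no read totals, so the depth behind each peak is unknown. The HepG2 label was checked against liver genes. APOA1, an apolipoprotein gene, had a peak within 3 kb of the transcription start site (TSS) in each list. Of 9 liver genes, a peak in the window was found at 5 in control Kac, at 6 in SB Kac and at 3 in Kbz. Within 3 kb of the TSS a peak was found at 2 of them in each list. The liver products ALB and APOB and the liver factor FOXA2 had no peak in their windows in any list. Of 7 markers of blood, nerve, heart and kidney podocytes, a peak within 3 kb of the TSS was found at 3 in control Kac, at 2 in SB Kac and at 0 in Kbz. The shares of all protein-coding genes there were 72.8%, 71.9% and 60.3%. In the windows of these markers the counts were 7, 7 and 3, against 82.6%, 81.4% and 72.3% of all protein-coding genes. The peaks thus go against the label at ALB, APOB and FOXA2, while other liver genes had peaks in their windows, as did the markers of other cells. The libraries are called by their labels below, and which cells gave them was not tested.

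NRF2 is kept scarce in unstressed cells by KEAP1, a cysteine-rich adaptor that hands it to a ubiquitin ligase built on CUL3. Oxidants and electrophiles modify KEAP1, NRF2 then accumulates, pairs with a small MAF protein and binds the antioxidant response element, a short sequence near genes for glutathione synthesis, thioredoxin reduction, quinone reduction and haem breakdown. In liver the pathway is known for its part in the handling of drugs and reactive metabolites.

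The core letters of the antioxidant response element, TGACNNNGC with N for any base, were searched on both strands of the hg38 sequence. A match is a description of letters and not of bound NRF2. Letters of this form that also hold TGACTCA overlap with the AP-1 motif. Matches under peaks are shown first because they set the marks beside the sequence. They are given with the 9 matching letters in capitals, 8 bases on each side, and the strand that carries the letters. The coordinates are those of the capitals. In the windows of the 9 genes, 13 matches held TGACTCA, and 3 of these lay under a peak. All 3 lay under control Kac, SB Kac and Kbz peaks alike:
NQO1 (chr16:69727007-69727015, minus strand): agtcacagTGACTCAGCagaatctg
HMOX1 (chr22:35377156-35377164, minus strand): ggcactggTGACTCAGCaaaatcta
GCLC (chr6:53548249-53548257, plus strand): cctccccgTGACTCAGCgctttgtg

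The NQO1 letters lay upstream of the gene, centred at -451 bp from the canonical TSS (negative positions are upstream), and held the first base of the divergent noncoding gene NQO1-DT at 69727013. Those of HMOX1 lay upstream of the gene at -3936 bp. At GCLC they lay inside the annotated gene, at -3152 bp from the canonical TSS and -47 bp from another protein-coding start. Across all protein-coding windows, 3.08% of the 16461 matches with TGACTCA lay under Kbz. For control Kac the share was 11%, and for SB Kac 10.6%. The other 10 such matches of the 9 genes were under no peak of any list.

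Further matches under peaks did not hold TGACTCA. Shown are those centred within 100 bp of a protein-coding start, a limit set after their values were seen. The first NFE2L2 match and that of GCLM lay under both Kac lists and no Kbz peak, and the others under all 3 lists:
NFE2L2 (chr2:177263613-177263621, minus strand): ggcttccgTGACAGCGCtcggttgg
NFE2L2 (chr2:177264073-177264081, plus strand): cggccccgTGACTAGGCacattttt
KEAP1 (chr19:10502794-10502802, plus strand): ggtcaccaTGACTAAGCagagccgg
KEAP1 (chr19:10502817-10502825, minus strand): ttttattgTGACACGGCgggcgccc
GCLC (chr6:53548204-53548212, plus strand): ccgccacgTGACTGCGCgggcccgc
TXNRD1 (chr12:104286930-104286938, minus strand): agtcagaaTGACAAAGCagaaatcc
GCLM (chr1:93909456-93909464, plus strand): gaagacaaTGACTAAGCagaaatcg

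All of these lay inside the genes or at their first base. The GCLM letters were centred at -30 bp from the canonical TSS, the TXNRD1 letters 9 bp downstream of an internal start, and the GCLC letters at -2 bp from the start upstream of the canonical one. The KEAP1 letters were 75 and 98 bp downstream of a start that lies 460 bp downstream of the canonical TSS, and the NFE2L2 letters 33 and 64 bp downstream of internal starts. SRXN1 had a single match under peaks, centred 610 bp downstream of its TSS and under all 3 lists:
SRXN1 (chr20:652586-652594, minus strand): ttaaaaagTGACACGGCtggaattc

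Promoters were taken from RefSeq (GRCh38.p14), as the 250 bases before and the 50 after each start, and 7 of the 9 genes matched. HMOX1 and SLC7A11 did not. TXNRD1 and GCLM are shown in full, because TXNRD1 has promoters with opposite peak states and GCLM is the gene without Kbz. Capitals mark the element letters on either strand. The upstream TXNRD1 promoter (chr12:104215529-104215828, plus strand) had 0 bp under any peak, the internal TXNRD1 promoter (chr12:104286782-104287081, plus strand) had all 300 bases under a peak of each list, and the GCLM promoter (chr1:93909381-93909680, minus strand) had 300 bases under both Kac lists and 0 under Kbz:
TXNRD1 upstream promoter: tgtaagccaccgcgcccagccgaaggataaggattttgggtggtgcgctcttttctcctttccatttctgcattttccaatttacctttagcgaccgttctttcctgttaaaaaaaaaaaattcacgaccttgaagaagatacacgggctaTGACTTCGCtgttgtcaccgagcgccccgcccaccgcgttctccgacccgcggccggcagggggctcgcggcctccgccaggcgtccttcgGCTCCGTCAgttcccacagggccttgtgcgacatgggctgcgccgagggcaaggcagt
TXNRD1 internal promoter: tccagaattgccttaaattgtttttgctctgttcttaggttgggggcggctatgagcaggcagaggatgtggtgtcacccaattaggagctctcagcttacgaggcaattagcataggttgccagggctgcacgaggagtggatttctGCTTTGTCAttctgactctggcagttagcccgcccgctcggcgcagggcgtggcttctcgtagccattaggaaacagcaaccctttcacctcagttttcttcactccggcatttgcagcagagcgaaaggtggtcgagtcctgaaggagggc
GCLM promoter: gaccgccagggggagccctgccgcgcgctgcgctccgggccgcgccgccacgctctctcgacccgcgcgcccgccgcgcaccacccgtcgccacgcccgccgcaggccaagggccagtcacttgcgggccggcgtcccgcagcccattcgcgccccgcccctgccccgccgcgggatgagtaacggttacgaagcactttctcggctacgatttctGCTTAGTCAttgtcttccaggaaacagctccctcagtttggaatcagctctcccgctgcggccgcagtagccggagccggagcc

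Of all 35116 promoters in the table, 13.3% held the letters. The upstream TXNRD1 promoter held 2 matches and no peak, so the letters and the marks did not go together there. Its GC content was 58.0%, against 53.7% for the internal TXNRD1 promoter and 71.7% for GCLM, with a median of 58.7% over the table.

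Each of the 9 genes had control Kac and SB Kac peaks in its window, and 8 had Kbz, GCLM being the exception. Among all protein-coding genes 82.6% met control Kac, 81.4% met SB Kac, 72.3% met Kbz and 71.5% met all 3, so counts of this size are near what these windows give in general. The windows took up 40 peaks of either Kac list and 20 of Kbz. Over the canonical TSS itself, 8 genes had control Kac, 8 SB Kac and 6 Kbz, against 59.1%, 60.4% and 45.8% of protein-coding genes. All 3 lists covered it at the same 6 genes and at 44.8% of protein-coding genes. TXNRD1 lacked all of them there, and GCLC and GCLM lacked Kbz alone. Among protein-coding genes with both Kac lists over the TSS, 80.3% also had Kbz, and 6 of 8 members did.

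**Figure D1:**
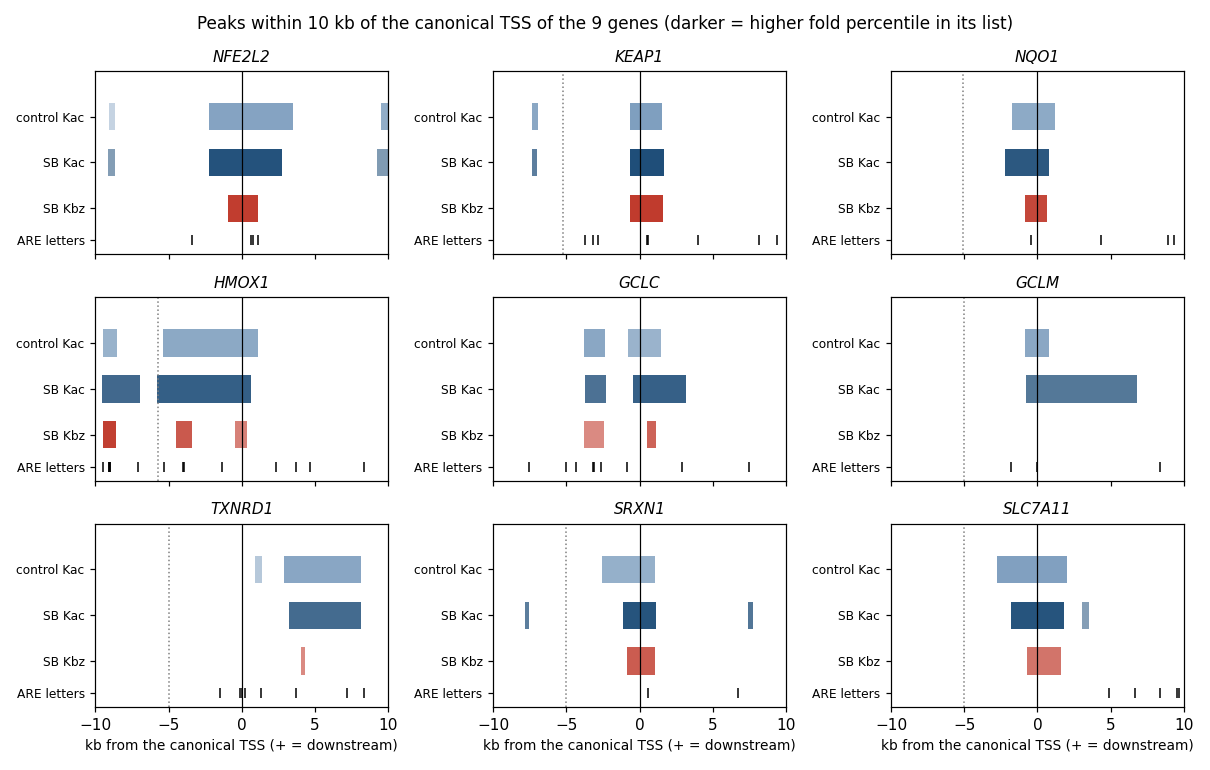
Peaks of each list (rows) within 10 kb of the canonical TSS of the 9 genes, drawn by distance from the TSS in kb in the direction of transcription, with darker bars for a higher fold percentile in the list; ticks in the lowest row are matches to TGACNNNGC, and the dotted line is the upstream edge of the window where it falls in the plot. Kbz covers the TSS of 6 genes, lies beside it at GCLC, and is not seen at GCLM or at the upstream start of TXNRD1.

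Near the TSS the genes were more widely covered than the typical gene. Of the 6 kb around the canonical TSS, the median member had 48.6% covered by control Kac, 59.7% by SB Kac and 24.7% by Kbz, against medians of 32.3%, 33.0% and 14.6% over all protein-coding genes and of 43.6%, 45.2% and 27.6% over those with any coverage. NFE2L2 had the widest Kac coverage (87.3% control, 83.0% SB) and SLC7A11 the widest Kbz coverage (38.2%). TXNRD1 had the narrowest, with 9.17% under control Kac and 0 under the other lists. Member genes had a median length of 24.3 kb, close to the 27.5 kb of protein-coding genes, and ranged from 6.59 kb for SRXN1 to 174 kb for NFE2L2.

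**Figure D2:**
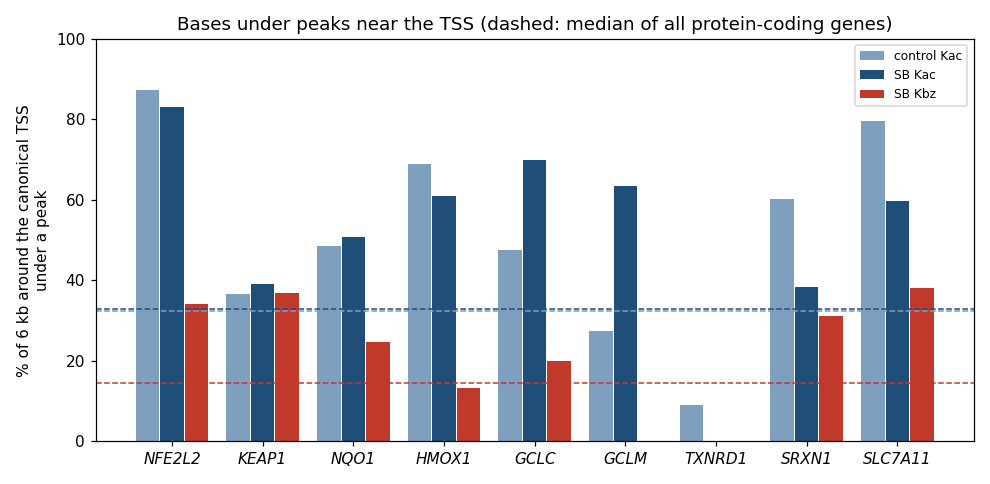
Percent of the 6 kb around the canonical TSS that lay under a peak of control Kac, SB Kac or SB Kbz (bars, 1 library each, no error bars) for each gene, with dashed lines at the median of all protein-coding genes. Kac bars are above their line at every gene but GCLM in control cells and TXNRD1, and Kbz bars are shorter than both Kac bars except at TXNRD1 and at KEAP1, where all 3 lists cover between 36.6% and 39.1%.

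Most peaks of one Kac list met a peak of the other. SB Kac overlapped 29 of the 40 control Kac peaks (72.5%, Wilson 95% interval 57.2 to 83.9, counting error only), and control Kac overlapped 30 of the 40 SB Kac peaks (75.0%, 59.8 to 85.8). Over the whole lists these shares were 64.7% and 72.5%. Kbz met 19 of the 40 SB Kac peaks (47.5%, 32.9 to 62.5), against 33.8% of the whole SB Kac list. These intervals take the peaks as independent, though 14 of the 40 SB Kac peaks came from NFE2L2 alone. They therefore cannot judge the genes against the whole list. In the other direction 19 of 20 Kbz peaks met SB Kac and 20 of 20 met control Kac, against 93.7% and 93.3% of the whole Kbz list. In the Kac lists, peaks that met both other lists had higher and longer medians than those with no partner, with overlapping ranges. The 19 SB Kac peaks with both partners had a median fold at percentile 90.9 of the SB Kac list and a median length of 3624 bp. For the 10 SB Kac peaks with no partner these values were percentile 28.3 and 852.5 bp, and for the 10 control Kac peaks with no partner percentile 24.2 and 896 bp. The 18 control Kac peaks with both partners had a median at percentile 84.7 and ranged from 30.3 to 99.8. Kbz peaks with both partners, 19 of 20, ranged from percentile 0.893 to 98.9. The percentile here is that of the deposited fold, which is the read density over background averaged along the whole broad peak, ranked in its own list.

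Not all of the Kbz in these windows lay at the genes' own starts. Of the 20 Kbz peaks, 8 covered a protein-coding start of the gene, 1 covered starts of the gene and of a neighbour, 2 covered the start of a neighbour alone and 9 covered no protein-coding start. The last had a median fold at percentile 35.8, against 65.4 for those on the gene's own start. Kbz peaks over the canonical TSS of all protein-coding genes had a median at percentile 70.8. Of the 9 without a start, 1 at GCLC lay 40 bp from a start of that gene. The same split was not counted over the whole Kbz list. The peaks on neighbours' starts were among the strongest, at percentiles 86.1 and 98.1.

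NFE2L2, the gene of NRF2 itself, held 15 peaks of control Kac, 14 of SB Kac and 5 of Kbz in a window around chr2:177218667-177392756 (minus strand). Over the canonical TSS at 177264727, the control Kac peak spanned 5723 bp (percentile 92.1), the SB Kac peak 4980 bp (percentile 96.6) and the Kbz peak, chr2:177263628-177265671, 2044 bp (percentile 96.9). The Kbz peak was the shorter core of a broad Kac domain, 41.0% of the SB Kac length. It held 11 of the gene's 37 annotated protein-coding starts, and the Kac domains held 19. Kbz was also found at the outermost start of the gene, -128029 bp from the canonical TSS, where NFE2L2 and AGPS, a gene of ether lipid synthesis, start 17 bp apart on opposite strands. A noncoding gene on the strand of NFE2L2 also starts there, 82 bp from that NFE2L2 start. The Kbz peak, chr2:177392033-177393447, stood at percentile 94.2, with SB Kac at 86.0 and control Kac at 84.1. Which of these starts the peaks belong to was not tested.

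Between these starts lay a peak with no protein-coding start within 5 kb. It was at -68646 to -67304 bp for Kbz (chr2:177332031-177333373, percentile 63.2), with SB Kac at percentile 92.2 and control Kac at percentile 55.2. This was the strongest SB Kac peak of the gene away from any start, while the control Kac peak there was near the middle of its list. Within the gene, 21247 to 21919 bp downstream of the TSS, a Kbz peak of 673 bp (percentile 61.5) lay in a Kac domain of 4645 bp in SB cells (percentile 90.3) and 6459 bp in control cells (percentile 91.7). The starts at -73972 to -73907 bp were under a control Kac peak of 5352 bp (percentile 75.6) that had no SB Kac or Kbz partner. The fifth Kbz peak of the window, 3′ of the gene, covered the start of HNRNPA3, an RNA-binding protein gene.

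**Figure D3:**
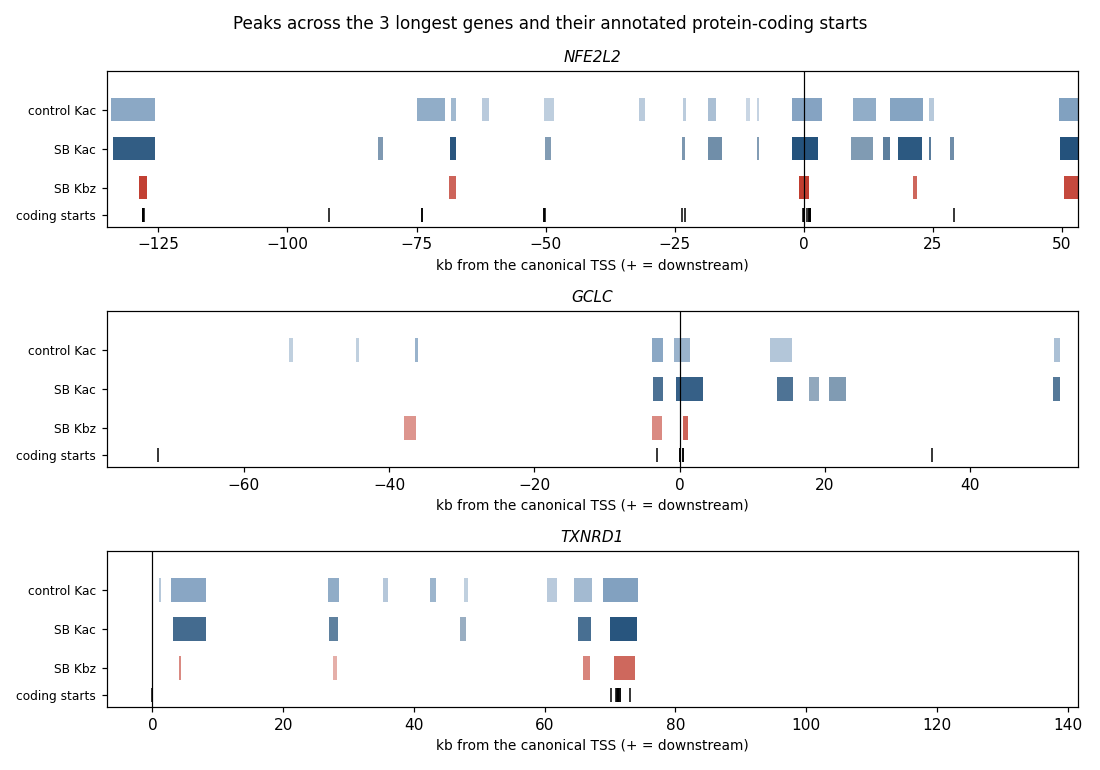
Peaks of each list across NFE2L2, GCLC and TXNRD1, the 3 longest genes, by distance from the canonical TSS in kb in the direction of transcription (shading as in the TSS maps), with ticks in the lowest row at annotated protein-coding starts. In TXNRD1 the strongest Kbz peak lies on the cluster of starts 70.2 to 73.1 kb downstream, and in NFE2L2 Kbz lies at the canonical TSS, the outermost start and the peak that begins at -68646 bp.

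KEAP1, the inhibitor of NRF2, had the strongest TSS peaks of the 9 genes in all lists. At chr19:10486125-10503558 (minus strand, TSS 10503356) the control Kac peak spanned 2194 bp, the SB Kac peak 2344 bp and the Kbz peak, chr19:10501786-10503990, 2205 bp. They stood at percentiles 99.8, 99.9 and 98.9. The 3 peaks had nearly the same edges, between 634 and 646 bp upstream and between 1547 and 1702 bp downstream of the TSS, and covered 5 of the 6 protein-coding starts. Kbz had 94.1% of the SB Kac length, a share higher than at 89.9% of protein-coding genes with both. The window held 1 other peak, an SB Kac peak of 592 bp 3′ of the gene (percentile 43.0).

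NQO1, a quinone reductase and a standard readout of NRF2 activity, had 1 peak in each list, and each covered all 4 protein-coding starts (chr16:69706996-69726668, minus strand, TSS 69726560). Control Kac spanned 2918 bp at percentile 81.2, SB Kac 3043 bp at percentile 90.9, and Kbz, chr16:69725919-69727401, 1483 bp at percentile 88.4. The Kbz peak reached 841 bp upstream, past the TGACTCAGC letters shown above. Among the TSS peaks of all protein-coding genes, the control Kac peak of NQO1 had percentile 43.5, its SB Kac peak 62.8 and its Kbz peak 80.0. It was thus placed higher among TSS peaks in each list than in the one before, whereas in the whole lists its Kbz percentile was below that of SB Kac.

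HMOX1, the inducible haem oxygenase that opens haem to biliverdin, iron and carbon monoxide, carried a long Kac domain with little Kbz in it (chr22:35380361-35394214, plus strand, TSS 35381096). The domain ran over chr22:35375749-35382231 in control cells (6483 bp, percentile 82.1) and chr22:35375333-35381755 in SB cells (6423 bp, percentile 84.4). Among TSS peaks of protein-coding genes the domain stood at percentile 45.6 in control Kac and 41.8 in SB Kac. Inside it Kbz formed 2 short peaks. One, chr22:35380666-35381468, covered the TSS with 803 bp at percentile 38.9, and the other, chr22:35376574-35377669, lay upstream with 1096 bp at percentile 73.4. The TSS Kbz peak had 12.5% of the length of the SB Kac peak, a share lower than at all but 0.625% of protein-coding genes with both. The upstream Kbz peak, at -4522 to -3427 bp, was the stronger, and it held the TGACTCAGC letters at -3936 bp and a further match at -4000 bp:
HMOX1 (chr22:35377092-35377100, minus strand): cccaaacaTGACGCAGCagaaatgc

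A stronger Kbz peak lay outside the window, 2824 bp beyond its upstream edge, at chr22:35371636-35372536 (901 bp, percentile 95.4). SB Kac there stood at percentile 75.2 and control Kac at 66.7. It is outside the counts above and was singled out after its values were seen. It held 4 matches, centred between -9073 and -8986 bp, of which 3 held TGACTCA:
HMOX1 (chr22:35372019-35372027, minus strand): cgggaccgTGACTCAGCaggaaaaa
HMOX1 (chr22:35372048-35372056, minus strand): cggggcggTGACTTAGCgaaaatag
HMOX1 (chr22:35372077-35372085, minus strand): cgggaccgTGACTCAGCgaaaacag
HMOX1 (chr22:35372106-35372114, minus strand): ctagaccgTGACTCAGCgaaaacag

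Of the Kbz peaks at and upstream of the HMOX1 start, the one over the TSS therefore ranked lowest. At the other end of the window a Kbz peak of 2233 bp (percentile 98.1) entered it by 226 bp and covered the start of MCM5, a replication helicase gene. Without it HMOX1 keeps 2 of its 3 Kbz peaks.

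GCLC, the catalytic subunit of glutamate-cysteine ligase, which limits the rate of glutathione synthesis, held 7 peaks of control Kac, 6 of SB Kac and 3 of Kbz (chr6:53497341-53616970, minus strand, canonical TSS 53545101). The canonical TSS was under a control Kac peak of 2205 bp (percentile 65.0) and an SB Kac peak of 3624 bp (percentile 82.7), and under no Kbz peak. Among TSS peaks of protein-coding genes these Kac peaks had percentiles 15.7 and 37.6. Kbz lay beside the canonical TSS, 508 to 1127 bp downstream (chr6:53543974-53544593, 620 bp, percentile 64.4). A second Kbz peak covered the protein-coding start at 53548206, -3105 bp from the canonical TSS (chr6:53547517-53548922, 1406 bp, percentile 31.6), where control Kac stood at percentile 85.2 and SB Kac at 66.8. This peak held 3 matches to the element. The SB Kac rank was thus above the control rank at the canonical TSS and below it at the upstream start. The remaining Kbz peak, chr6:53581398-53583058 at -37957 to -36297 bp (percentile 22.4), was the only Kbz peak of the 9 genes with no SB Kac peak. It met a control Kac peak of 456 bp (percentile 65.3).

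GCLM, the modifier subunit of the same ligase, had Kac over both of its starts and no Kbz in its window (chr1:93885199-93909456, minus strand, TSS 93909430). The control Kac peak spanned 1647 bp at percentile 85.3, and the SB Kac peak 7620 bp at percentile 60.5. Among TSS peaks of protein-coding genes GCLM thus stood at percentile 54.3 in control Kac and 7.78 in SB Kac. A difference this low was found at 1.82% of the 11159 protein-coding genes with both peaks. The SB Kac peak had 463% of the control length, since it ran 6806 bp into the gene against 809 bp, and fold is averaged over that length. The part of the length in the lower fold was not tested. At the 3′ edge of the window an SB Kac peak at percentile 99.8 entered it by 535 bp, whereas the control Kac peak there (percentile 97.9) ended 84 bp outside and the Kbz peak (percentile 94.3) 269 bp outside. All 3 covered the start of DNTTIP2, a nucleolar protein gene. With 10 kb in place of 5 kb, GCLM has this Kbz peak.

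SLC7A11, the cystine transporter that feeds glutathione synthesis, had high-ranking Kac and mid-ranking Kbz over its single start (chr4:138164097-138242349, minus strand, TSS 138242349). Control Kac spanned 4775 bp at percentile 97.1, SB Kac 3581 bp at percentile 94.6, and Kbz, chr4:138240749-138243037, 2289 bp at percentile 50.2. Among TSS peaks of protein-coding genes it stood at percentile 77.5 in SB Kac and 23.5 in Kbz, a difference as low as that of 0.987% of the 9121 genes with both. The length ratio was ordinary, with Kbz at 63.9% of the SB Kac length against a median of 64.7%. No match to the element lay under its TSS peaks. A second site, 55123 to 56014 bp into the gene, carried low-ranking Kbz (chr4:138186335-138187226, percentile 7.82).

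TXNRD1, the cytosolic thioredoxin reductase, had no peak over its canonical TSS at 104215779 in any list (chr12:104215779-104350307, plus strand). The next peaks lay 2886 bp downstream for control Kac (percentile 87.1) and 3218 bp for SB Kac (percentile 72.7), apart from a control Kac peak of 436 bp at percentile 28.1. The marks lay instead on a cluster of 13 protein-coding starts 70.2 to 73.1 kb into the annotated gene. There control Kac spanned 5291 bp (percentile 95.3), SB Kac 4207 bp (percentile 93.2), and Kbz, chr12:104286458-104289617, 3160 bp (percentile 60.5). It was the longest Kbz peak of the 9 genes and covered 12 of the 13 starts. Further Kbz peaks at 4025, 27595 and 65823 bp downstream stood at percentiles 31.2, 0.893 and 35.8, each inside Kac peaks of both lists. A count by canonical TSS leaves TXNRD1 without a mark. By any protein-coding start it has all of them, as has GCLC, which brings the members to 9, 9 and 8, against 63.5%, 63.8% and 50.3% of protein-coding genes.

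SRXN1, sulfiredoxin, which restores overoxidised peroxiredoxins, is the shortest of the genes and had 1 peak per list on its single start (chr20:646615-653200, minus strand, TSS 653200), besides an SB Kac peak of 323 bp beyond its 3′ end. Control Kac spanned 3610 bp at percentile 70.7, SB Kac 2298 bp at percentile 94.5, and Kbz, chr20:652160-654028, 1869 bp at percentile 70.3. Among TSS peaks of protein-coding genes its control Kac peak had percentile 22.7, its SB Kac peak 76.9 and its Kbz peak 49.2. The step from control to SB Kac was higher than at 99.4% of the 11159 genes. The SB Kac peak had 63.7% of the control length, the opposite of GCLM.

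**Figure D4:**
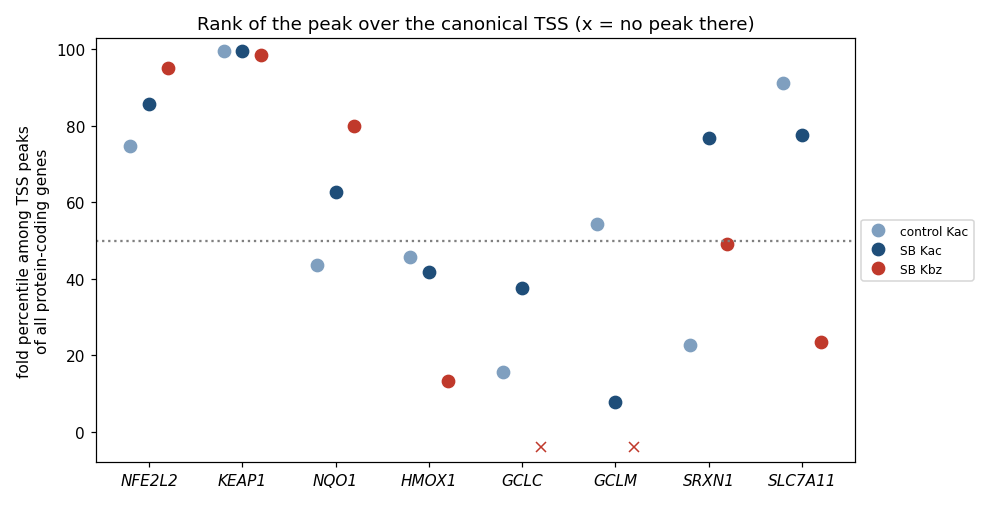
Percentile of the fold of the peak over the canonical TSS among the TSS peaks of all protein-coding genes in the same list, for control Kac, SB Kac and SB Kbz (points, 1 library each); a cross marks a gene with no peak there, the dotted line is percentile 50, and TXNRD1 is left out since it has none. SRXN1 goes from 22.7 to 76.9 and GCLM from 54.3 to 7.78 between the Kac lists, and SLC7A11 from 77.5 to 23.5 between SB Kac and Kbz, while KEAP1 stays above 98 in each.

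The 8 genes with Kac peaks over the TSS in both conditions did not all differ in one direction. The rank among TSS peaks was higher in SB Kac for 4 of them, NFE2L2, NQO1, GCLC and SRXN1, and lower for GCLM, SLC7A11, HMOX1 and KEAP1, at KEAP1 with a difference of only -0.0146 percentile points. Over all protein-coding genes it was higher for 50.7%. By percentile in the whole list, HMOX1 and KEAP1 turn, and 6 of the 8 were higher in SB Kac, against 65.6% of protein-coding genes. Between SB Kac and Kbz, the rank among TSS peaks was higher in Kbz for 2 of 6 genes, NFE2L2 and NQO1, against 32.5% of protein-coding genes. By percentile in the whole list NQO1 turns, which leaves NFE2L2, 1 of 6, against 6.33%. The Kac counts are near the background on either scale.

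Matches to the element were slightly denser in these windows than in all protein-coding windows, with 240 matches or 0.354 per kb against 0.331. Of the 240, 46 were covered by control Kac (19.2%), 44 by SB Kac (18.3%) and 17 by Kbz (7.08%), against 7.83%, 7.54% and 2.39% of matches over all protein-coding windows. More of the windows was also under peaks, and per kb of peak Kbz had a density of 0.656 against 0.433, SB Kac one of 0.471 against 0.408, and control Kac one of 0.497 against 0.409. NFE2L2 held 5 of the matches under Kbz, GCLC and TXNRD1 3 each, KEAP1 and HMOX1 2 each, NQO1 and SRXN1 1 each, and GCLM and SLC7A11 0.

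Other genes of the pathway were taken as 7 lists with 47 genes. Over the canonical TSS, 37 had control Kac and as many SB Kac, and 31 had Kbz, which were also the 31 with all 3. The shares of all protein-coding genes there are 59.1%, 60.4% and 45.8%. Within 3 kb of the TSS the counts were 42, 43 and 40, beside 72.8%, 71.9% and 60.3% of protein-coding genes. The thioredoxin system (TXN, TXN2, TXNRD2, PRDX1, PRDX3, PRDX6 and TXNIP) had every mark over the TSS at 7 of 7 genes, with TXNRD2, the mitochondrial reductase, at percentiles 99.8, 99.9 and 99.5 of the lists in the same order. This contrasts with TXNRD1 at its canonical TSS. The oxidant enzymes SOD1, SOD2, CAT and GPX1 also had every mark at 4 of 4. Among partners and regulators of NRF2, 6 of 8 had control Kac, 6 SB Kac and 5 both as well as Kbz over the TSS, with MAFK in control Kac alone and MAFF in SB Kac alone, and all 8 had each mark within 3 kb. SQSTM1, which binds KEAP1, stood at percentiles 96.5, 98.0 and 97.5.

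For glutathione synthesis and use, 6 of 9 genes had each mark over the TSS and 7 within 3 kb. The exceptions were GPX2, an intestinal glutathione peroxidase, and MGST1, a microsomal glutathione transferase. NADPH supply had 5 of 6 genes with both Kac lists and 4 with Kbz over the TSS, and all 6 within 3 kb. Iron and haem genes had 5 of 5 with Kac and 3 with Kbz over the TSS, the ferritin gene FTH1 at percentiles 99.0, 98.3 and 97.8. Detoxification and efflux had the fewest, 4 of 8 with both Kac lists and 2 with Kbz over the TSS, and 5, 6 and 3 within 3 kb. AKR1C1, an aldo-keto reductase, and CES1, a liver carboxylesterase, had no peak in their windows in any list, and AKR1B10 had SB Kac alone within 3 kb. ABCC3, an efflux pump, and EPHX1, an epoxide hydrolase, had both Kac lists and no Kbz there. TXNRD2, SQSTM1, MAFK, MAFF, FTH1, ABCC3 and EPHX1 were named after their values were seen. The lists were too short to set one against another.

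**Figure D5:**
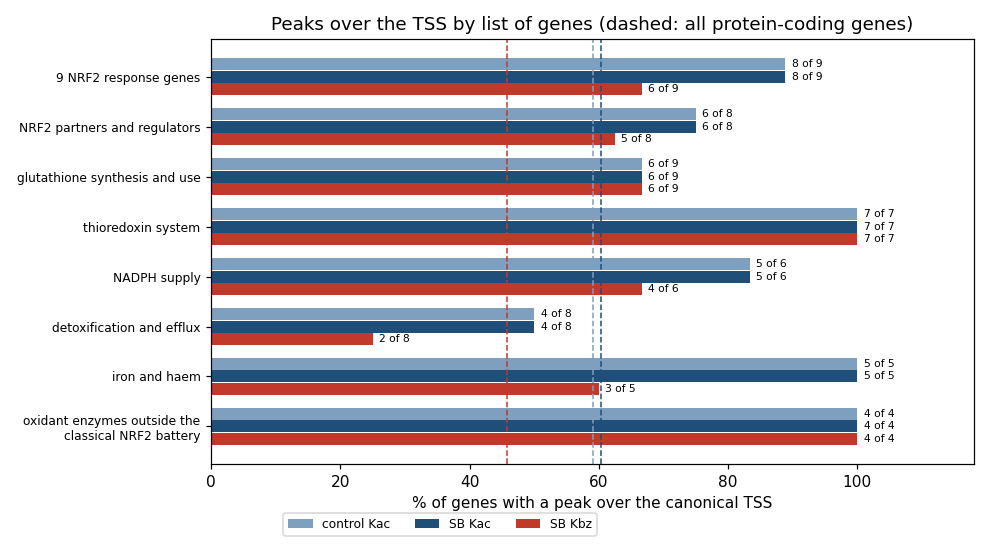
Percent of genes with a peak over the canonical TSS in control Kac, SB Kac and SB Kbz (bars, counts at their ends) for the 9 NRF2 response genes and the 7 pathway lists, with dashed lines at the share of all protein-coding genes. The thioredoxin system and the oxidant enzymes are at 100% in every list, and detoxification and efflux, with 2 of 8 genes, has the lowest Kbz bar.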

How the data were processed

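ChIP-seq libraries were grouped by their titles into 6 groups with 1 library each, and the control Kac, SB Kac and SB Kbz peak lists were used. Per the labels and the methods of the study, the authors sequenced single reads of 50 bp, aligned them to hg38 with Bowtie2 2.2.6, removed duplicates with SAMtools 0.1.19 and called peaks with MACS2 2.1.1 at a stated FDR of 0.01. Other settings of these tools and the background used for the folds are not given in the sources used here. Each list was called on 1 library. The deposited columns are a fold (a ratio of read density over background), −log10 p, −log10 q and an integer score. The deposited fold was used for ranks within its list, the −log10 q for thresholds, and the score in no result. No threshold was set on the −log10 p. Deposited peaks reached a q of 0.0487 (control Kac), 0.0494 (SB Kac) and 0.0485 (SB Kbz), beyond the stated FDR. Depth is unknown, and a deeper library gives more peaks. Inputs and the control Kbz library were not analysed here.

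Peaks on 24 chromosomes were kept, which dropped 3 of control Kac on other sequences. Genes came from GENCODE 44, with the canonical transcript for the TSS. Overlap meant at least 1 bp, also for a match under a peak. Percentiles are ranks in percent of the set named. Calculations used Python 3.11.15, numpy 2.4.6, pandas 2.3.3, scipy 1.17.1, matplotlib 3.10.9 and bedtools 2.31.1. In simulated data 1000 of 1000 planted overlaps were recovered, 0 of 1000 planted neighbours were called and 200 of 200 planted motifs were found, and 0 of 6 overlap counts differed from bedtools. The genes named were the 9 members, genes of the pathway lists without a peak within 3 kb of the TSS in a list that has one at most genes of that pathway list, and neighbours whose TSS lies in a member's window. Others are said to be singled out after their values were seen. HNRNPA3, MCM5 and DNTTIP2 were also named afterwards. Members, lists and alternatives were chosen with earlier results of these data known. The result for 1 of the liver genes is not reported here.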

Additional observations from a re-analysis of the deposited data

How the results depend on the processing

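The 19 results were recomputed under 1 changed choice each, which gave 147 values. Of these, 102 stayed inside their interval or, for a count, within 1.5 times, and 45 moved further. None could reverse, since counts and shares have no direction. Merging peaks within 1 kb changed no value, and those values are among the 102. For shares of bases each base was taken as a trial, so small changes such as 13.6% to 13.4% count as moved. The intervals for overlaps take peaks as independent. No paired analysis was possible because no group has more than 1 library, and none could be left out. Except where fewer peaks or bases entered, the cause was not tested. As reported, 13.6%, 13.8% and 3.82% of window bases lay under control Kac, SB Kac and Kbz. These shares were 12.6%, 12.4% and 3.60% at a −log10 q of at least 2, 12.0%, 12.2% and 3.50% in gene bodies alone, 13.4%, 14.1% and 4.41% with 10 kb on each side, and 51.7%, 51.7% and 22.0% within 3 kb of the TSS. At a −log10 q of at least 5, peaks numbered 16, 15 and 12, bases 9.47%, 7.71% and 2.47%, matches under SB Kac 26, and Kbz met 86.7% of SB Kac peaks and SB Kac 100% of Kbz peaks; SRXN1 then lacked control Kac, and SLC7A11 and GCLM lacked Kbz. With 15000 peaks per list, control Kac and SB Kac had 12 and 14 peaks and 23 and 24 matches, bases were 6.63%, 6.99% and 2.97%, control Kac covered 4 TSSs, and Kbz met 100% of SB Kac peaks; NQO1 and SRXN1 then lacked control Kac. Within 3 kb of the TSS peaks numbered 11, 9 and 8, SB Kac met 90.9% of control Kac peaks and 100% of Kbz peaks, and 100% and 88.9% of SB Kac peaks met control Kac and Kbz. When each peak had to cover 50% of the other, Kbz met 22.5% of SB Kac peaks and SB Kac 40.0% of Kbz peaks. The looser letters TGANNNNGC gave 187, 184 and 66 matches. Counting only matches with TGACTCA gave 3, 3 and 3; this alternative and that of any protein-coding start were chosen after seeing the data. Depth is unknown, and its part in peak numbers and ranks was not tested.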

Other observations

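Several annotated neighbours start inside the windows of the 9 genes. AGPS and NQO1-DT had control Kac, SB Kac and Kbz over their starts. AGPS starts 17 bp from the outermost NFE2L2 start on the other strand. NQO1-DT starts -453 bp from the canonical TSS of NQO1. EID3, a protein-coding gene inside TXNRD1, had none of them at its start, 87960 bp into that gene. At GCLC, the noncoding genes GCLC-AS1 and LINC01564 had no peak over their starts in any list, and neither did the outermost protein-coding start of GCLC, at -71869 bp, which lies 256 bp from the start of LINC01564 on the other strand. At NFE2L2, the microRNA gene MIR6512 (start 177313882) was under both Kac lists and no Kbz, and MIR3128 (start 177256010) was under none.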
